A study of Mus musculus with 84 samples.

Results

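The genes described here are 10 metallothionein and zinc transporter genes, Mt1, Mt2, Mtf1, Slc30a1, Slc30a4, Slc30a5, Slc30a7, Slc39a1, Slc39a6 and Slc39a7, out of 55471 genes in the count tables. They were chosen by the bulk levels of Mt1, which followed IL-4 receptor activity, so the bulk values below selected the list and are given as a description. All 10 were found, each under 1 gene ID, and all had 20 or more reads summed over the bulk libraries. The cells are MMC9s, mucosal mast cells that make IL-9, taken from the small intestine in a BALB/c model of food allergy to ovalbumin. The bulk data hold 1 library each of IL-4RaY709F (an IL-4 receptor alpha chain with gain of function), IL-4Ra-/- (loss of that receptor chain) and WT cells. In all 3, bone marrow progenitors of that genotype had been given to WT mice sensitized to ovalbumin, which were then challenged orally with ovalbumin 7 times, 3 times a week. Each RNA was pooled from 12 to 20 biological replicates. The labels give neither the age of the mice nor how donor cells were told from those of the host. A further 81 WT MMC9s were sequenced singly after sensitization with ovalbumin and alum and repeated oral challenge; they were sorted as IL-4GFP high cells positive for c-Kit and ST2, and no animal is named for them, so they count as 1 sample. By their markers 2 of these cells, 37 and 46, go against the label and carry mostly plasma or B cell transcripts, so values of the single cells are given with and without them.

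Metallothioneins are small proteins rich in cysteine that bind zinc and copper ions and buffer them in the cytosol. MTF1, a zinc finger transcription factor that senses free zinc, binds metal response elements and switches on the metallothionein genes and the zinc exporter gene Slc30a1. Transporters of the SLC30 (ZnT) family move zinc out of the cytosol, across the plasma membrane or into vesicles and the Golgi, and those of the SLC39 (ZIP) family move it into the cytosol. Mast cell granules store zinc, and in mice the ZnT encoded by Slc30a5 takes part in mast cell activation through the IgE receptor.

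The sequences below are the promoter windows of Mt1 and Mt2, whose transcripts differed between the libraries, and of Slc30a1, a classical MTF1 target. Slc30a1 had fewer than 50 reads in every bulk library. Whether metal response elements had a part in any of these levels was not tested. Each window is the RefSeq reference sequence (GRCm38.p6, plus strand) of 300 bases, not sequence read from these BALB/c mice. It runs to 50 bases past the start that RefSeq annotates. That start can differ from the gene coordinates given below, where Mt2 begins at 94172664. The windows lie at chr8:94178839-94179138, chr8:94172368-94172667 and chr1:191906531-191906830. Capitals mark the letters TGCACNC or TGCGCNC, searched on both strands, so a match on the other strand reads GNGTGCA or GNGCGCA.
Mt1: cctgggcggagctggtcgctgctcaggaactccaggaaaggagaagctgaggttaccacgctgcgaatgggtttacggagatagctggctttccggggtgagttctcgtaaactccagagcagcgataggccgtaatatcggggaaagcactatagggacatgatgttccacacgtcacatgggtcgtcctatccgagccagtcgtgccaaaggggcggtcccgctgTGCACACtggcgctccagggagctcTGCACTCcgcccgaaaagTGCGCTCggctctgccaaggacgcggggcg
Mt2: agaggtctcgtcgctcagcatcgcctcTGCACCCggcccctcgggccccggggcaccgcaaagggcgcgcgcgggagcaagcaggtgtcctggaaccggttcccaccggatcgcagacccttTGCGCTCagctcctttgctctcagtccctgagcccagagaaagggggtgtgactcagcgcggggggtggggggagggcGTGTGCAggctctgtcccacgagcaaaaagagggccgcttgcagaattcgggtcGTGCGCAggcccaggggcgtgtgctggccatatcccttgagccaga
Slc30a1: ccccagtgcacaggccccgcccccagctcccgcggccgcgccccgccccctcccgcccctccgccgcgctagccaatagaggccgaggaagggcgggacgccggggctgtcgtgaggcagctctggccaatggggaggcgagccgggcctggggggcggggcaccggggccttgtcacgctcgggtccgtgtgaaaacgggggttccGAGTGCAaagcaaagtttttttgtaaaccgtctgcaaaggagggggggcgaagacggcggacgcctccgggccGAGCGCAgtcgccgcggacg

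The Mt1 window held 3 matches, at positions 228, 253 and 271 of the 300 bases. The Mt2 window held 4, at positions 28, 123, 201 and 255, and the Slc30a1 window held 2, at 208 and 281. No match overlapped another. Among 32851 promoter windows of the same length, 25.7% held at least 1 match, 7.11% at least 2, 1.97% at least 3 and 0.517% at least 4. Of the 9 members with a window, Slc30a4 also held 3 matches and Slc30a5 1, while Mtf1, Slc30a7, Slc39a1 and Slc39a7 held none. The AP-1 letters TGACTCA or TGAGTCA, the kind of site that BATF binds with JUN proteins, occurred once in the Mt2 window (position 172) and in no other member's window, against 5.2% of all windows. A STAT6 motif (TTC and GAA 4 bases apart, which reads alike on both strands) occurred in the Slc30a5 window alone among the members, against 6.95% of all windows. The STAT3 motif, with a gap of 3 bases, occurred in no member's window, against 8.3% of all. These matches describe letters in a window and show no binding. Letters outside the 300 bases were not searched, so the matches are not counts for a whole promoter.

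**Figure D1:**
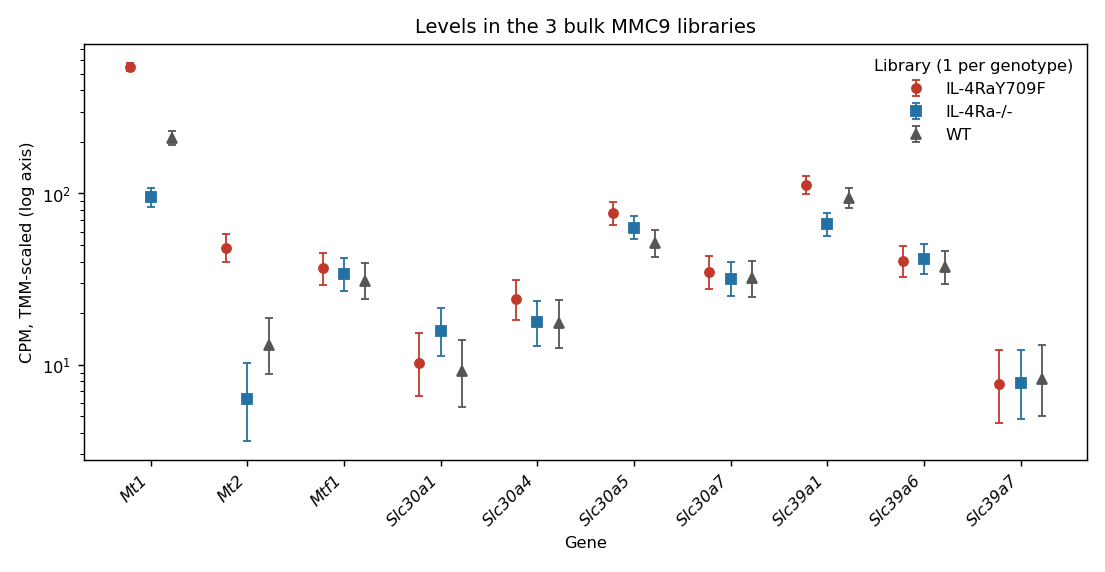
Levels of the 10 genes in CPM (log axis) in the IL-4RaY709F, IL-4Ra-/- and WT bulk libraries, 1 library per genotype. Points are the libraries and bars the exact Poisson 95% intervals, which cover counting error only; Mt1 is at 547 CPM in IL-4RaY709F, 95.2 in IL-4Ra-/- and 210.5 in WT, while the bars of most transporters overlap.

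Both metallothionein transcripts were most abundant in the gain-of-function library and least abundant in the loss-of-function library, whereas Mtf1 and the 7 zinc transporters stayed within 2-fold of WT in both. Mt1 (ENSMUSG00000031765, chromosome 8, 94179082 to 94180327, plus strand) had 1273 reads in IL-4RaY709F, 242 in IL-4Ra-/- and 481 in WT. As CPM, the count relative to the scaled library size, this was 547 in IL-4RaY709F (95% counting interval 518 to 578), 95.2 in IL-4Ra-/- (83.6 to 108) and 210.5 in WT (192 to 230.1). The intervals of the 3 libraries did not overlap. Mt1 was 2.60-fold higher in IL-4RaY709F than in WT (log2 ratio 1.38, 1.23 to 1.53) and stood at 45.2% of WT in IL-4Ra-/- (log2 ratio -1.15, -1.37 to -0.92). Between the mutants it was 5.75-fold higher in IL-4RaY709F (log2 ratio 2.52, 2.32 to 2.73).

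Mt2 (ENSMUSG00000031762, chromosome 8, 94172664 to 94173568, plus strand), the neighbour of Mt1 that encodes the other metallothionein made in most tissues, had 112 reads in IL-4RaY709F, 16 in IL-4Ra-/- and 30 in WT. These counts corresponded to 48.2 CPM in IL-4RaY709F (39.7 to 57.9), 6.29 CPM in IL-4Ra-/- (3.60 to 10.2) and 13.1 CPM in WT (8.86 to 18.7). The IL-4RaY709F interval lay above both others, and those of IL-4Ra-/- and WT overlapped. Mt2 was 3.67-fold higher in IL-4RaY709F than in WT (log2 ratio 1.88, 1.28 to 2.51) and 7.65-fold higher than in IL-4Ra-/- (log2 ratio 2.94, 2.17 to 3.79). Its log2 ratio of IL-4Ra-/- to WT was -1.06 (-2.03 to -0.14), with too few reads for the size rule. The remaining family genes of this cluster, Mt3 and Mt4, had 0 reads in every bulk library, and a count of 0, taken as a limit of 3 reads per library, allows up to 1.29 CPM in IL-4RaY709F, 1.18 CPM in IL-4Ra-/- and 1.31 CPM in WT.

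With 1 library per genotype there was no test, and each ratio compares libraries and not genotypes. A size rule stood in for one. It asked for 50 or more reads in the larger library, a ratio of 2-fold or more, and a counting interval without a ratio of 1. Against WT, 2 of the 8 members with enough reads were higher in IL-4RaY709F, Mt1 and Mt2, and none was lower. Of 5964 genes with enough reads, 1.68% were higher and 0.771% lower by the same rule. In IL-4Ra-/- against WT, 1 of the 6 members with enough reads was lower, Mt1, and none was higher, where 1.30% of 6246 genes were lower and 2.43% higher. Between the mutants, 2 of 8 members were higher in IL-4RaY709F, Mt1 and Mt2, and none lower, where 4.62% of 6319 genes were higher and 3.50% lower. Since these contrasts chose the list, nothing is read from its counts. Scaling by total reads shifts every log2 ratio by -0.11 (IL-4RaY709F over WT), 0.13 (IL-4Ra-/- over WT) and -0.24 (IL-4RaY709F over IL-4Ra-/-). The genes higher and lower then numbered 71 and 69, 207 and 45, and 145 and 359 in these 3 comparisons, in place of 100 and 46, 152 and 81, and 292 and 221.

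Ratios between these libraries spread more widely than counting error. Among genes with 1000 to 5000 reads the log2 ratio of IL-4RaY709F to WT had a robust SD of 0.28, against a median counting error of 0.05. Among genes with 200 to 1000 reads that of IL-4Ra-/- to WT had a robust SD of 0.33, against 0.12. Between the mutants the spread was wider. Its robust SD was 0.51 at 1000 to 5000 reads, against 0.06, and 0.43 at 100 to 200 reads, against 0.19. In these ranges 9.38% and 6.61% of genes lay beyond 2-fold between the mutants. The counting intervals of the members therefore leave out part of the spread between libraries. A ratio in the order of receptor activity (IL-4RaY709F above WT above IL-4Ra-/-, past the size rule between the mutants) was found for 4.15% of 6319 genes, and Mt1 and Mt2 were among them. Passing the rule against WT in both mutants in that direction was found for 14 genes, 0.241% of 5810, one of them Mt1. Both comparisons share the WT library, and Mt1 chose the list by these levels, so nothing is read from its place among them.

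**Figure D2:**
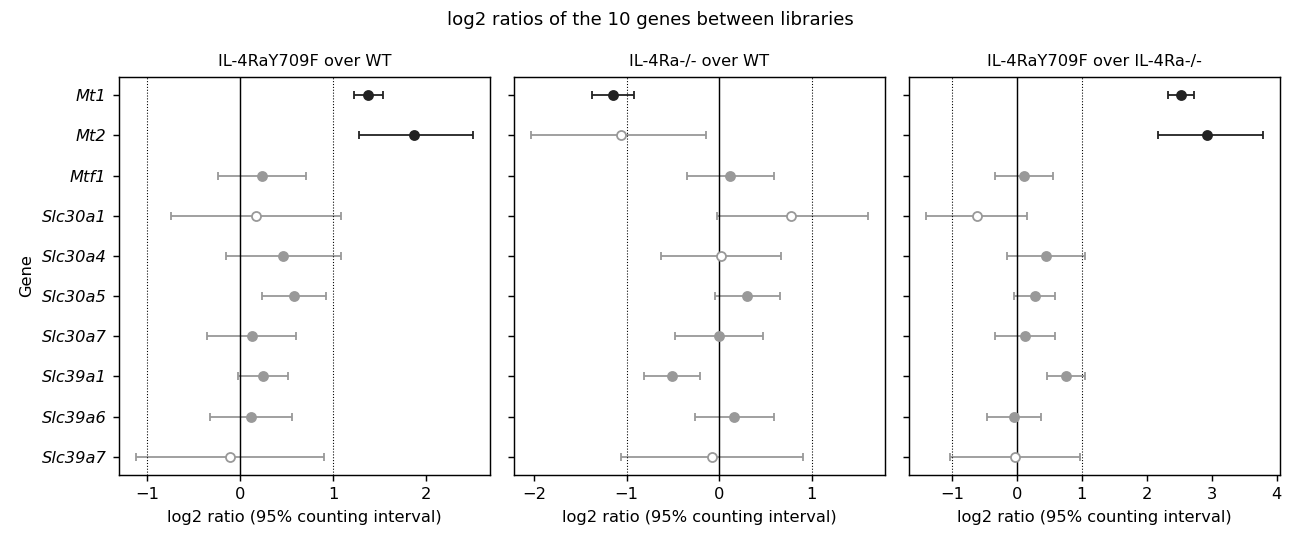
The log2 ratios of the 10 genes for IL-4RaY709F over WT, IL-4Ra-/- over WT and IL-4RaY709F over IL-4Ra-/-, with exact 95% counting intervals. Dark points passed the size rule, grey points did not, open points had under 50 reads in the larger library, and dotted lines mark 2-fold; Mt1 and Mt2 alone lie past 2-fold, at 1.38 and 1.88 for IL-4RaY709F over WT.

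Mtf1 (ENSMUSG00000028890, chromosome 4), the zinc sensor itself, had 36.5 CPM in IL-4RaY709F, 33.8 in IL-4Ra-/- and 31.1 in WT. The 3 intervals overlapped, and its log2 ratios to WT were 0.23 (-0.24 to 0.71) and 0.12 (-0.35 to 0.60). The transcript of the regulator thus differed between the libraries by less than counting error could show.

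Among the exporters, Slc30a1 (ENSMUSG00000037434, chromosome 1), the plasma membrane zinc exporter, had 24 reads in IL-4RaY709F, 40 in IL-4Ra-/- and 21 in WT, or 10.3, 15.7 and 9.19 CPM. Its highest value was in IL-4Ra-/-, unlike that of Mt1, but the log2 ratio to WT there was 0.78 with an interval that included 0 (-0.02 to 1.61), and its reads were too few for the size rule. Slc30a4, which loads zinc into endosomes and lysosomes, had 24.1 CPM in IL-4RaY709F, 17.7 in IL-4Ra-/- and 17.5 in WT, with overlapping intervals. Slc30a5 (ENSMUSG00000021629, chromosome 13), a transporter of the early secretory pathway, had 178 reads in IL-4RaY709F, 161 in IL-4Ra-/- and 117 in WT, which is 76.5, 63.3 and 51.2 CPM. It was the 1 transporter whose interval excluded 0 in IL-4RaY709F against WT (log2 ratio 0.58, 0.24 to 0.93), short of 2-fold, and its ratio in IL-4Ra-/- was also above 0 (0.31, -0.05 to 0.66). Slc30a7, which supplies the Golgi, was level, at 34.8 CPM in IL-4RaY709F, 31.9 in IL-4Ra-/- and 31.9 in WT.

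Among the importers, Slc39a1 (ENSMUSG00000052310, chromosome 3), which brings zinc in across the plasma membrane, had 261 reads in IL-4RaY709F, 169 in IL-4Ra-/- and 216 in WT. At 112.2, 66.5 and 94.5 CPM it lay in the same order as Mt1 with a much smaller range. Its log2 ratio was 0.25 in IL-4RaY709F over WT (-0.02 to 0.51), -0.51 in IL-4Ra-/- over WT (-0.81 to -0.21) and 0.76 between the mutants (0.47 to 1.04), all short of 2-fold. Slc39a6, another plasma membrane importer, had 40.4 CPM in IL-4RaY709F, 41.7 in IL-4Ra-/- and 37.2 in WT. Slc39a7, which releases zinc from the endoplasmic reticulum, had 18, 20 and 19 reads in IL-4RaY709F, IL-4Ra-/- and WT, too few for the size rule. Over the 7 transporters the median log2 ratio was 0.17 in IL-4RaY709F over WT (range -0.10 to 0.58), 0.02 in IL-4Ra-/- over WT (-0.51 to 0.78) and 0.13 between the mutants (-0.61 to 0.76). The medians over all genes with enough reads were 0.02, -0.08 and 0.09.

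**Figure D3:**
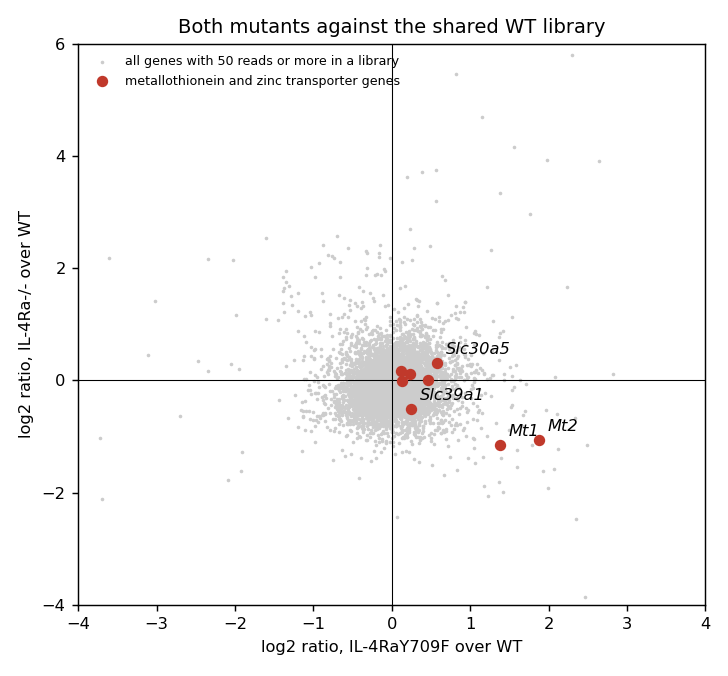
Each grey point is a gene with 50 or more reads in at least 1 bulk library (6391 within the axes, 9 outside), with its log2 ratio of IL-4RaY709F to WT across and of IL-4Ra-/- to WT up. Of the 8 red points, Mt1 (1.38, -1.15) and Mt2 (1.88, -1.06) sit at the lower right and the other 6 within the cloud; both axes share the WT library.

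Per kilobase of exon, Mt1 was the most abundant of the 10 genes in every bulk library, at 439 CPM per kilobase in IL-4RaY709F, 76.4 in IL-4Ra-/- and 169 in WT. In IL-4RaY709F it was followed by Mt2 (81.9) and then Slc39a1 (47.5), while in IL-4Ra-/- and in WT Slc39a1 came second (28.1 and 39.98) and Mt2 after it (10.7 and 22.3). In IL-4Ra-/- the per-kilobase interval of Mt2 overlapped that of its next neighbour Slc39a6, and in WT it lay above it. Slc39a6 and Slc30a5 came next, at 7.02 to 10.5 CPM per kilobase, with overlapping intervals in each library. Slc30a4, Mtf1, Slc30a7, Slc39a7 and Slc30a1 made up the lowest group, between 1.75 and 4.39, where each overlapped its neighbour. These lengths are the union of annotated exons, 1246 bases for Mt1 and 7294 for Slc30a5, and part of the order depends on them. On its main transcript of 549 bases Mt1 stood at 997 CPM per kilobase in IL-4RaY709F, 173 in IL-4Ra-/- and 383 in WT, still the highest member. On its main transcript of 3179 bases Slc30a5 stood at 24.1 in IL-4RaY709F, 19.9 in IL-4Ra-/- and 16.1 in WT, above Slc39a6 (10.4, 10.7 and 9.58 in the same order) with no overlap of their intervals. On that length Slc30a5 also came before Mt2 in IL-4Ra-/- (12.3), where the intervals of Slc30a5 and Mt2 overlapped. In WT the main-transcript interval of Mt2 (17.3 to 36.7) overlapped those of Slc39a1 (34.8 to 45.7) and Slc30a5 (13.3 to 19.3).

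The levels of some members are uncertain because of their neighbours in the annotation. Of the exon bases of Mt2, 73.5% are also exon of Gm45774, on the other strand, and of those of Slc39a7, 80.7% are also exon of Gm20427 on the same strand. Gm45774 was listed at 0 reads in every bulk library and Gm20427 at 0, 1 and 0 in IL-4RaY709F, IL-4Ra-/- and WT. No source used here gives the strand setting or the treatment of reads in overlapping exons. Reads may therefore be missing from Mt2 and Slc39a7 in all libraries and single cells alike. The bulk level of Mt2 against Mt1 was not compared further. Mt1 overlapped no other exon, and none of its 50-base stretches occurred in a transcript of another gene. For Slc39a1, 21.8% of such stretches also occurred in the pseudogene Slc39a1-ps, which had 8 reads in IL-4RaY709F, 2 in IL-4Ra-/- and 3 in WT.

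In bulk RNA, fewer cells of a type and less RNA per cell cannot be told apart. All 12 mast cell markers had reads in each library, with summed levels of 89443 CPM in IL-4RaY709F, 59947 in IL-4Ra-/- and 63348 in WT. Il4ra, the altered gene, stood at 787 CPM in IL-4RaY709F, 138 in IL-4Ra-/- and 353 in WT, and Batf, the factor the study names, at 456, 51.5 and 150.5 CPM. Macrophage markers went with the libraries too, all 10 with reads in each, at a summed 86.4 CPM in IL-4RaY709F, 573 in IL-4Ra-/- and 168 in WT. So did 7 plasma or B cell markers (3020, 13371 and 6566 CPM, with Mzb1 at 0 in WT). Sums of 12 epithelial markers were 30.1, 84.9 and 27.6 CPM in the same order, with Cdx1 and Elf3 at 0 in IL-4RaY709F and Krt20 and Fabp2 at 0 in WT. The 6 T cell markers summed to 198, 276 and 158 CPM, the 6 stromal or endothelial ones to 375, 211 and 224 CPM and the 5 Paneth cell ones to 6.88, 23.6 and 2.19 CPM. Single members of the last 3 lists were at 0, Cd8a, Trac and Ang4 in IL-4RaY709F and Cd8a, Kdr, Defa30, Mmp7 and Ang4 in WT. Most of the T cell sum came from Cd3e, which was detected in 30 of 80 single cells labelled WT MMC9. Most of the stromal or endothelial sum came from Pecam1, detected in 45 of 80. The 5 other T cell markers summed to 2.15, 12.2 and 4.81 CPM in the same order. The 5 other stromal or endothelial markers summed to 3.87, 14.2 and 5.69 CPM, highest in IL-4Ra-/-. The part of these other cells in the member ratios was not tested. When the scaling used only genes detected in at least 10% of the single cells, Mt1 had log2 ratios of 1.35 in IL-4RaY709F over WT and -1.07 in IL-4Ra-/- over WT, both past the size rule. That scaling shifts every log2 ratio alike, by -0.03 and 0.08 in these comparisons. It takes no reads of other cells out of Mt1, so it does not test their part.

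Other genes of zinc, metal and stress handling were listed with earlier results of these data known, so nothing is read from their counts. None of those with enough reads passed the size rule against WT. Of all genes, 1.68% were higher and 0.771% lower in IL-4RaY709F over WT, and 2.43% and 1.30% in IL-4Ra-/- over WT. With 2 to 10 genes with enough reads per list, a count of 0 says little. Of 7 further exporters listed 3 were measured, and 2 had enough reads for the size rule. Of 11 further importers listed 8 were measured, and 4 or 5 had enough reads, depending on the comparison. None of these passed the rule in any comparison. Their median log2 ratios were 0.05 and -0.04 in IL-4RaY709F over WT and -0.31 and 0.08 in IL-4Ra-/- over WT. Over 10479 measured genes the medians were 0.00 and -0.03. Slc30a2, a vesicular exporter, was the most abundant of them, with 167 CPM in IL-4RaY709F, 88.9 in IL-4Ra-/- and 130.4 in WT. It lay in the order of Mt1 but short of 2-fold (log2 ratios to WT 0.36 and -0.55). Slc39a4, the importer best known from the gut epithelium, did likewise, at 57.6, 32.6 and 49.9 CPM. Slc39a9 went the other way, with 34.8 CPM in IL-4RaY709F, 66.1 in IL-4Ra-/- and 42.4 in WT. The remaining leading members of these lists were Slc30a9 (log2 ratios to WT 0.05 and -0.31), Slc30a6 (-0.85 and 0.18, under 50 reads) and Slc39a11 (-0.20 and 0.27).

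None of the 5 measured MTF1 target and metal stress genes, all with enough reads, passed in any comparison (median log2 ratio 0.21 in IL-4RaY709F over WT and -0.02 in IL-4Ra-/- over WT). Hmox1 and Gclc are also in the oxidative stress list. Ndrg1, a stress-induced gene, was the highest of them, at 1682 CPM in IL-4RaY709F, 1328 in IL-4Ra-/- and 1316 in WT. Selenow, which encodes a small selenoprotein, had log2 ratios to WT of 0.56 and -0.23, and the LIM domain gene Csrp1 0.11 and -0.02. Of 13 NRF2 and oxidative stress genes 10 had enough reads and none passed (medians over the 13 0.27 and 0.15), with log2 ratios to WT of 0.41 and -0.47 for the autophagy adaptor Sqstm1, 0.27 and 0.15 for the thioredoxin Txn1 and 0.31 and 0.20 for the peroxiredoxin Prdx1. Of 7 measured copper genes 4 had enough reads and none passed (medians over the 7 0.01 and -0.11). Log2 ratios to WT were 0.27 and -0.56 for the superoxide dismutase Sod1, -0.10 and -0.11 for the copper chaperone Atox1, and 0.01 and -0.44 for Ccs, with under 50 reads. Of 8 measured iron genes (medians 0.14 and -0.05) 6 had enough reads against WT and none passed. Between the mutants, with 7 genes over the minimum, the ferritin light chain gene Ftl1 was higher in IL-4RaY709F (log2 ratio 1.01). Aco1, an iron-regulated aconitase, was lower (-1.06). Of 6319 genes 4.62% were higher and 3.50% lower in this comparison. The shift of -0.24 with total reads brings Ftl1 short of 2-fold. The ferritin heavy chain gene Fth1 had log2 ratios to WT of -0.01 and -0.43, and the transferrin receptor gene Tfrc 0.64 and 0.68.

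Glucocorticoids and IL-6 family cytokines acting through STAT3 are known inducers of metallothionein genes in other tissues. None of 7 measured glucocorticoid response genes, all with enough reads, passed the rule in any comparison. Of all genes, 0.771% to 4.62% passed, depending on comparison and direction, so a count of 0 of 7 says little. The medians of the 7 genes lay below 0 in both mutants, at -0.41 in IL-4RaY709F over WT and -0.45 in IL-4Ra-/- over WT. Per1, a clock gene, had 365 CPM in IL-4RaY709F, 458 in IL-4Ra-/- and 624 in WT. The chaperone gene Fkbp5 had log2 ratios to WT of -0.27 and -0.70, and the phosphatase gene Dusp1 -0.17 and -0.05. Of 7 measured genes of STAT3 and IL-6 family signalling 6 had enough reads in IL-4RaY709F over WT, where 4 were higher and none lower (median log2 ratio 1.04 over the 7), beside 1.68% of all genes higher. They were Il6st, the shared receptor chain of the family (1.54), the feedback inhibitor Socs3 (1.18), the kinase gene Jak1 (1.15) and the NF-kB cofactor Bcl3 (1.04). In IL-4Ra-/- over WT 5 had enough reads, and 2 were lower, Socs3 (-1.88) and Bcl3 (-1.03), and none higher (median -0.59 over the 7), beside 1.30% of all genes lower. Scaling by total reads brings Bcl3 short of 2-fold in both. Stat3 itself had log2 ratios of 0.38 and -0.42 and the kinase gene Pim1 0.27 and -0.59, neither past the rule. Both lists were written with earlier results of these data known, so nothing is read from their counts. The part of glucocorticoids or of STAT3 in the metallothionein levels was not tested.

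By its ratios to WT over the 3 bulk libraries, the genes nearest to Mt1 among 2623 with 200 or more reads were Il2ra, Il4ra, Rnf180, Bcl3 and Entpd1. Il2ra, the alpha chain of the IL-2 receptor, had log2 ratios of 1.59 in IL-4RaY709F over WT and -1.25 in IL-4Ra-/- over WT. Il4ra had 1.16 and -1.36. Their distances from Mt1 were 0.24 and 0.31 on the log2 scale, and that of Entpd1, an ectonucleotidase gene, was 0.38. Likeness here rests on 3 libraries, 1 of them shared by both ratios. The bulk levels of Mt1 chose the list, and Il4ra is the gene altered in both mutants. Nothing is therefore read from these distances.

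In the single cells labelled WT MMC9, Mt1 and Slc39a1 were read in most cells and the other 8 members in a minority. Of 81 cells, 80 had 10000 or more gene reads and were kept, with 163596 to 2210211 reads each (median 1209300). Cells 37 and 46 had summed mast cell markers of 958 and 191 CPM and summed plasma or B cell markers of 411634 and 654886 CPM. The other 78 cells had at least 1494 CPM of mast cell markers (median 64037) and at most 1308 CPM of plasma or B cell markers. Among them, cells 2 and 79 lay far below that median, at 1494 and 1522 CPM, and were kept. Cell 2 also held 943 CPM of macrophage markers and no Mt1 read, and cell 79 held 6 Mt1 reads. Of the members' reads, cell 46 held 12 of Slc30a1, 4 of Mt1, 2 of Slc39a1 and 2 of Slc39a6, and cell 37 held 1 of Slc30a7 and 1 of Slc39a1. A gene counted as detected in a cell at 10 reads, which is 8.27 CPM at the median depth. Mt1 was detected in 69 of 80 cells (86.2%, exact 95% interval 76.7 to 92.9). Without cells 37 and 46 it was detected in 69 of 78 (88.5%, 79.2 to 94.6). Its level ran from 0 to 1334 CPM per cell, with a median of 166 and quartiles of 41.1 and 309. Mt1 had no read in 2 cells and 1 to 9 reads in 9. Slc39a1 was detected in as many cells, 69 of 80, with a median of 223 CPM and a highest value of 1948.

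Mt2 was detected in 18 of 80 cells (22.5%, 13.9 to 33.2), with a median of 0 and a highest value of 156 CPM. All 18 of these cells also had Mt1, and 51 had Mt1 without Mt2. As in bulk, Mt2 reads may be missing because of the overlap with Gm45774, so these shares of Mt2 may be too low. Mtf1 was detected in 11 of 80 cells. Slc30a1 was detected in 2 of 80 (2.50%, 0.304 to 8.74), of which 1 is cell 46, so that 1 of the other 78 cells had it (1.28%, 0.0325 to 6.94). Each other member was detected in the same number of cells without cells 37 and 46. The vesicle and secretory pathway exporters Slc30a4, Slc30a5 and Slc30a7 were detected in 11, 19 and 20 cells. The importers Slc39a6 and Slc39a7 were detected in 15 and 5. Outside the 10 genes, Slc30a2 was detected in 45 cells, Mt3 in 1 cell and Mt4 in none, where 0 of 80 cells has an upper limit of 4.51%. A cell held a median of 3 of the 10 members, at most 6, and 5 cells held none (4 of 78 without cells 37 and 46). These intervals cover only the sampling of cells, taken as independent draws, and leave out the effect of depth on detection. Reads carried no molecular identifiers known from the labels.

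**Figure D4:**
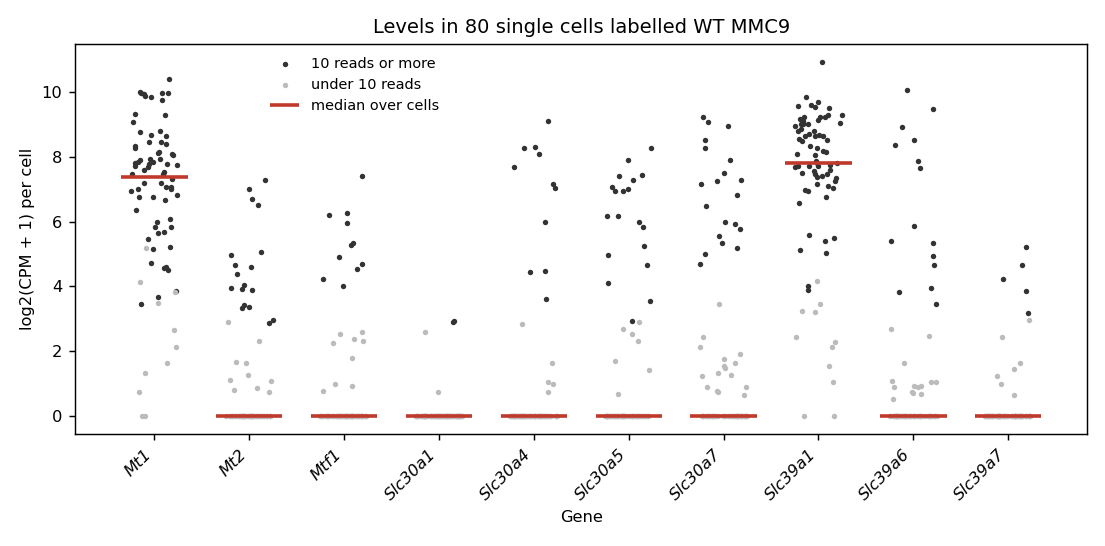
Each point is 1 of 80 single cells labelled WT MMC9, cells 37 and 46 included, with its level on the log2(CPM + 1) scale; dark points have 10 or more reads of the gene, grey points fewer, and red lines are medians over cells. Mt1 and Slc39a1 have medians of 166 and 223 CPM and spread over the cells, while the other 8 genes have medians of 0 with a few cells high.

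The reads of the minority members were concentrated in few cells. Of the reads of Slc30a4, 50% came from 3 cells, and its top cell, at 545 CPM, held 35.1% of them. Slc39a6 reached 1072 CPM and Slc30a7 602 CPM in their top cells, and 3 and 4 cells held 50% of their reads. For Mt1 the same share took 12 cells and for Slc39a1 18, with 6.66% and 7.36% of the reads in the top cell. Mt2 took 4 cells.

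The bulk and single WT cells came from different allergy models and sorts, so their levels are set side by side with no test. Mt1 stood at 210.5 CPM in WT bulk and 267 CPM in the summed single cells, and Mt2 at 13.1 CPM in WT bulk and 8.51 CPM in the cells. Slc39a1 had 94.5 CPM in WT bulk and 336 CPM in the cells, a ratio of 0.281, where 5.83% of 7850 genes with 20 or more WT bulk reads were 3-fold or more lower in WT bulk. Slc30a1 was the member that differed most, at 9.19 CPM in WT bulk, against 0.258 CPM in the summed cells. WT bulk was thus 35.7-fold higher (95% counting interval 18.9 to 66.9), where 7.77% of the 7850 genes were 10-fold or more higher. Of the 24 Slc30a1 reads in the cells 12 came from cell 46, and without cells 37 and 46 the fold was 69.5 (32.7 to 155), at 0.132 CPM in the cells, beside 7.94% of genes. No other member's fold left its counting interval without them. Slc39a7 (8.31 CPM in WT bulk, against 1.75 CPM in the cells) was 4.75-fold higher in WT bulk and Mtf1 (31.1 CPM, against 9.19 CPM) 3.38-fold. By 3-fold or more, 23% of those genes were higher there. Of the 10 macrophage markers, all read in WT bulk, 7 were detected in no single cell and the others in at most 7 cells. Their part in the bulk level of Slc30a1 was not tested.

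Over the 80 cells the levels of Mt1 and Mt2 had a Spearman rho of 0.44 on the log2(CPM + 1) scale, and of 0.43 without cells 37 and 46. Cells share their chemistry and differ in depth, with which Mt1 had a rho of 0.22 and Mt2 0.18, and Mt2 was at 0 in 52 cells. Each of the 44 other pairs of members had a rho between -0.16 and 0.27, with a median of 0.02, and Mtf1 had a rho of 0.11 with Mt1 and 0.17 with Mt2. Among 3626 genes detected in at least 20 cells, Mt1 was the gene most like Mt2, followed by Tent5c (0.44), Gm12696 (0.44), Edem2 (0.42) and Mier1 (0.41). Among 3625 such genes, those most like Mt1 were the chymase gene Cma1 (0.50), Ftl2-ps (0.49), Ftl1 (0.46), the signalling adaptor gene Tyrobp (0.45) and Ctdsp1 (0.45). Ftl2-ps is annotated as a pseudogene of Ftl1, so reads may be split between them. These places depended on cells 37 and 46. Without them 3 of the 5 genes most like Mt1 stayed (Cma1, Ftl2-ps and Ctdsp1) and Cst3 came first (0.47). Mt1 (0.43) was then second to Tent5c (0.44) in likeness to Mt2.

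**Figure D5:**
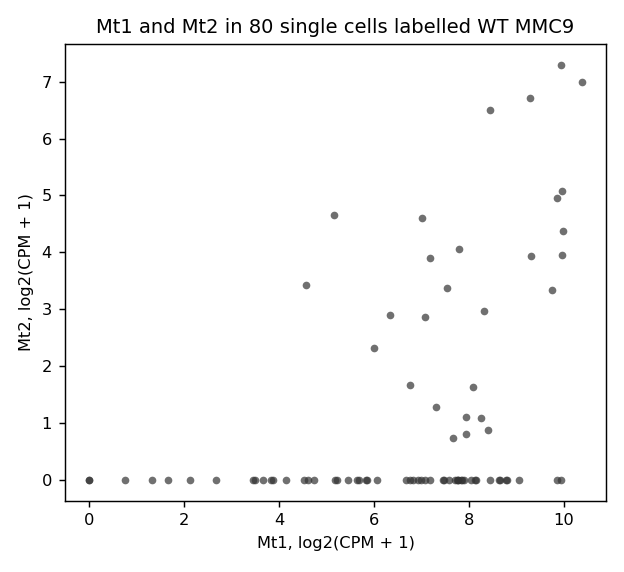
Mt1 against Mt2 in 80 single cells labelled WT MMC9, cells 37 and 46 included, both on the log2(CPM + 1) scale, 1 point per cell. The Spearman rho is 0.44; 52 cells lie on the lower edge with no Mt2 read, and all 18 cells with 10 or more Mt2 reads also have 10 or more Mt1 reads.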

How the data were processed

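Raw counts of reads per gene, as deposited by the authors without normalization, covered 3 bulk libraries and 81 single cells. HISAT, featureCounts and Subread 2.0.0 are the tools, and GRCm38 and mm9 the builds, listed in the submitters' processing notes. No source used here gives the strand, overlap or multi-mapping settings. Of 55471 gene IDs, 55230 were in GENCODE M21 (GRCm38), 99.4% of them with the same coordinates. The bulk libraries held 2521791 (IL-4RaY709F), 2330628 (IL-4Ra-/-) and 2299793 (WT) gene reads.

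Bulk counts were scaled to CPM with TMM factors from edgeR 4.0.16. A level has an exact Poisson 95% interval and a ratio of 2 libraries an exact conditional binomial one; these cover counting error only. With 1 library per genotype no p-value was computed. The computation of ratios and intervals was checked on simulated counts with known folds, which is no test of the measured ratios. List genes needed 20 reads summed over the 3 libraries. Other scalings (total reads, DESeq2 1.42.0 size factors and others), read minimums, folds and detection limits were tried. Cells needed 10000 gene reads, no doublet caller was run, 2 cells with more plasma or B cell than mast cell marker CPM were kept in the main values and left out in an alternative, and shares have Clopper-Pearson intervals.

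The members and lists were chosen with earlier results of these data known. Named by rule were the 10 members, Il4ra, Batf, list genes past the size rule or among the 3 most abundant per kilobase in WT, and the 5 genes most like Mt1 or Mt2 by Spearman rho over cells (detected in at least 20) or, for Mt1, by distance of the bulk ratios.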

Additional observations from a re-analysis of the deposited data

How the results depend on the processing

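Of 150 member ratios recomputed under 5 other scalings, 149 stayed on their side of the size rule and within the main counting interval; the 1 exception, Mt1 between the mutants with total reads, was 2.28 and still past the rule. The scaling on genes read in single cells was added after the data were seen. Without a read minimum or with one of 20, 2 members were lower in IL-4Ra-/- over WT, Mt2 joining Mt1; with one of 200, 1 member was higher in IL-4RaY709F, against WT and against IL-4Ra-/-.

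Counts over all genes moved with the rule. With no minimum, a minimum of 20, a minimum of 200 and a 1.5-fold limit, IL-4RaY709F over WT gave 252, 181, 43 and 367 higher and 258, 127, 8 and 212 lower. IL-4Ra-/- over WT gave 630, 420, 18 and 407 higher and 267, 167, 24 and 553 lower, and 45 lower with total reads. IL-4RaY709F over IL-4Ra-/- gave 556 (no minimum), 145 (minimum of 200) and 923 (1.5-fold) higher and 871, 544, 29 and 528 lower under the 4 rules, and with total reads 145 higher and 359 lower.

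At 1 read, 97.5% of cells had Mt1 and 35% Mt2; after thinning every cell to 163596 reads, 70% had Mt1 and 6.25% Mt2 at 10 reads, so depth limits these shares. The correlation of Mt1 with Mt2 was 0.42 to 0.46 in the 5 alternatives run, 2 of them (cells with both genes, and without cells 37 and 46) added after the data were seen. No paired analysis was possible because each genotype had 1 bulk library and the single cells have no partner in it.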
